A study of Mus musculus with 12 samples.

Results

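The 10 genes described here encode contents of the platelet alpha granule and were chosen by symbol: Pf4, Ppbp, Vwf, Thbs1, Selp, F13a1, Srgn, Clu, Mmrn1 and Tgfb1. All 10 were found among the 55536 genes of the count table, and all 10 were among the 20263 genes that passed the filter on low counts. They were measured by SMART-Seq RNA sequencing of sorted megakaryocytes (MKs). The donors were C57BL/6 Pf4-TdTomato mice given saline or cecal slurry (CS), a suspension of gut contents that causes sepsis, and BM and spleen were taken on day 5. The 4 groups were BM MKs after saline, BM MKs after sepsis, splenic MKs after saline and splenic MKs after sepsis, with 3 libraries per group and 300 sorted cells per library. All groups carried the Pf4-Cre transgene and its TdTomato reporter. The sort kept CD45+, Tom+, CD41+ and CD42b+ cells and left out cells stained for lineage markers or CD138. The promoter of Pf4, which is itself among the 10 genes, thus drove the Cre that switches the reporter on, not the reporter itself. A further 2 MK proteins, CD41 and CD42b, served as gates. The labels give no age or sex, and do not say how many mice gave the cells of a library.

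MKs are the large polyploid cells that release platelets. They make some alpha granule proteins themselves and take up others from plasma, pack them into granules and pass the granules on to platelets, which release them when activated. The cargo includes chemokines (Pf4, platelet factor 4, and Ppbp, pro-platelet basic protein), adhesive proteins (Vwf, von Willebrand factor, which binds platelets to damaged vessel walls, Thbs1, thrombospondin 1, and Mmrn1, multimerin 1, which binds coagulation factor V), and P-selectin (Selp), a granule membrane receptor for leukocytes. It further includes the fibrin-crosslinking factor XIII A chain (F13a1), the proteoglycan serglycin (Srgn), which holds cationic cargo such as PF4 in granules, the chaperone clusterin (Clu), and the growth factor TGF-β1 (Tgfb1). Several are known not to be particular to MKs: Srgn is made by many blood cells, F13a1 by monocytes and macrophages, and Vwf, Selp and Mmrn1 by endothelial cells.

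Pf4 and Ppbp, the 2 chemokine genes, are neighbours on chromosome 5 of GRCm38. Ppbp (ENSMUSG00000029372) occupies 90768518 to 90770063 on the plus strand and Pf4 (ENSMUSG00000029373) 90772435 to 90773383 on the same strand, which leaves 2371 bases between them. RefSeq sequence for GRCm38.p6 held a promoter entry for 7 of the 10 genes (Pf4, Ppbp, Selp, F13a1, Srgn, Mmrn1 and Tgfb1). The 250 bases before the start site are shown for the chemokine neighbours, for Selp, whose level differed between tissues, and for F13a1 and Srgn, whose levels did not pass the test in any comparison. Capitals mark the letters GATAA or AGGAAG on either strand, which are motifs of the GATA and ETS families of transcription factors. Pf4 is chr5:90772185-90772434 (plus strand), Ppbp chr5:90768268-90768517 (plus), Selp chr1:164115014-164115263 (plus), F13a1 chr13:37050245-37050494 (minus) and Srgn chr10:62527446-62527695 (minus).
Pf4: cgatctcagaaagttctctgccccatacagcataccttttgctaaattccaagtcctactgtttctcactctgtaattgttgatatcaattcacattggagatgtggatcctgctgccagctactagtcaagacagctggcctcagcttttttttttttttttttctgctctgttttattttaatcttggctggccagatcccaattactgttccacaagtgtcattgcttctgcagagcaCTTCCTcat
Ppbp: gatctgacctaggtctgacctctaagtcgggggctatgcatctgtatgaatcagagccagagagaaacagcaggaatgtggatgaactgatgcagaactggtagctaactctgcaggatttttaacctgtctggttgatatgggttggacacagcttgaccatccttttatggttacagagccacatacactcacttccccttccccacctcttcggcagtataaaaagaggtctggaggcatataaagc
Selp: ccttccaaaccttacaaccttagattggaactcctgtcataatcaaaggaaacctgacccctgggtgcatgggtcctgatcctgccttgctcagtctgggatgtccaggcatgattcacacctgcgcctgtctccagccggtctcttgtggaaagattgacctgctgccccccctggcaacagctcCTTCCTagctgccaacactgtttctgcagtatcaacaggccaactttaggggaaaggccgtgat
F13a1: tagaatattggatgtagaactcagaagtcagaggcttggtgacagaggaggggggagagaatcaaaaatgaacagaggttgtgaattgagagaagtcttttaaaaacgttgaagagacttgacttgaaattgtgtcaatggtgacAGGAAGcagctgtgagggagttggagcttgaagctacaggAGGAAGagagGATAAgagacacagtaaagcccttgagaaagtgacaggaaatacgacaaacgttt
Srgn: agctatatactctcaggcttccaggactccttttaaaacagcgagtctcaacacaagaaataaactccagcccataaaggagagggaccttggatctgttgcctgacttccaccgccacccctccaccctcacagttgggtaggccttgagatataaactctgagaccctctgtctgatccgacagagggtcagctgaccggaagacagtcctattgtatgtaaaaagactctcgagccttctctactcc

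GATAA was found in 2 of the 7 windows (F13a1 and Mmrn1), against 22.6% of 32851 mouse promoter windows of the same length. The Mmrn1 start site lies 19341 bases inside the gene as GENCODE draws it, while those of the other 6 lie within 6 bases of the GENCODE start. AGGAAG was found in 4 (Pf4, Selp, F13a1 and Tgfb1), against 29.5%, and the RUNX motif TGTGGT in 0, against 14.0%. The match in Pf4 began 9 bases before the start site and read on the minus strand. These motifs do not overlap each other in the windows shown, and a match describes letters only.

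Total counts per library were between 7756762 and 27386184. The 10 genes took 1.57 to 5.37% of all counts in BM libraries and 0.223 to 0.382% in splenic libraries. Levels are given as CPM, the counts of a gene relative to the library's total, scaled with TMM factors. The markers of the sorted cell type were present in every group but were themselves lower in spleen: the summed level of 12 MK markers was 869 to 2300 CPM in BM, 139 to 350 CPM in 5 splenic libraries and 954 CPM in the third splenic sepsis library. Within this list Tubb1, the platelet beta tubulin, had at most 3 counts in each library of the splenic sepsis group. Each of the other groups also held a library with a Tubb1 count of 0. Tubb1 had 0, 77 and 76 counts in BM after saline and 277, 0 and 19 in BM after sepsis. In spleen after saline it had 70, 1 and 0 counts. Markers of other cells were also present. The sum of 10 B cell markers (highest Ighm, Cd74 and Cd79b) was 143 to 1215 CPM in BM and 23091 to 65137 CPM in spleen, with none of the 10 at 0 in a whole group. Immunoglobulin and T cell receptor genes took 1.04 to 4.23% of counts in BM and 13.03 to 30.1% in spleen. The sum of 8 plasma cell markers (highest Jchain, Xbp1 and Mzb1) was 1485 to 4697 CPM in BM and 7761 to 80835 CPM in spleen. The sum of 10 basophil and mast cell markers (highest Mcpt8, Prss34 and Cpa3) was 2865 to 29441 CPM in BM, 3248 to 5179 CPM in spleen after saline and 56.4 to 771 CPM in spleen after sepsis. The sum of 10 neutrophil markers (highest S100a8, S100a9 and Elane) was 100.04 to 272 CPM in BM after saline, 2248 to 16714 CPM in BM after sepsis, 339 to 21182 CPM in spleen after saline and 66.2 to 10424 CPM in spleen after sepsis. A pair of libraries stood apart from their groups: the first BM sepsis library had the highest share of counts on the 10 genes (5.37%), while the third splenic sepsis library had the highest splenic MK marker sum and the lowest splenic immunoglobulin share (13.03%).

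Per kilobase of exon, the scale on which genes can be compared with each other, Pf4 was the most abundant of the 10 in each of the 6 BM libraries. In spleen it had the highest group means, but Srgn was above it in 4 of the 6 libraries. Its mean was 25885 ± 2330 CPM per kb (SD, n = 3) in BM after saline, where it ranked 2nd of the 20263 genes, and 24445 ± 15708 CPM per kb (SD, n = 3) in BM after sepsis, where it ranked 1st. In spleen Pf4 reached 1630 ± 1520 CPM per kb (SD, n = 3) after saline and 870 ± 218 CPM per kb (SD, n = 3) after sepsis, and ranked 63rd and 101st. Without the third splenic saline library the mean after saline was 754 CPM per kb for Pf4 and 912 CPM per kb for Srgn. Ppbp ranked 12th, 7th, 136th and 133rd in the same order of groups, and Srgn 69th, 67th, 109th and 129th. The remaining 7 genes were far lower. In BM after saline they lay between 2.49 (F13a1) and 37.5 (Thbs1) CPM per kb, and the means of neighbours in that order, such as Thbs1 at 37.5 ± 7.57, Mmrn1 at 34.0 ± 10.9 and Clu at 30.6 ± 13.6 CPM per kb (SD, n = 3 each), lay within each other's spread. In spleen after saline Srgn (813 ± 183 CPM per kb) and Ppbp (634 ± 56.5 CPM per kb) were likewise within their spread, and the lowest was Tgfb1 at 0.485 ± 0.370 CPM per kb (SD, n = 3 each). Pf4 took 62.4 to 79.5% of the counts on the 10 genes in BM libraries and 13.8 to 51.5% in splenic libraries. Srgn took 4.42 to 15.1% in BM and 25.1 to 61.2% in spleen.

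**Figure D1:**
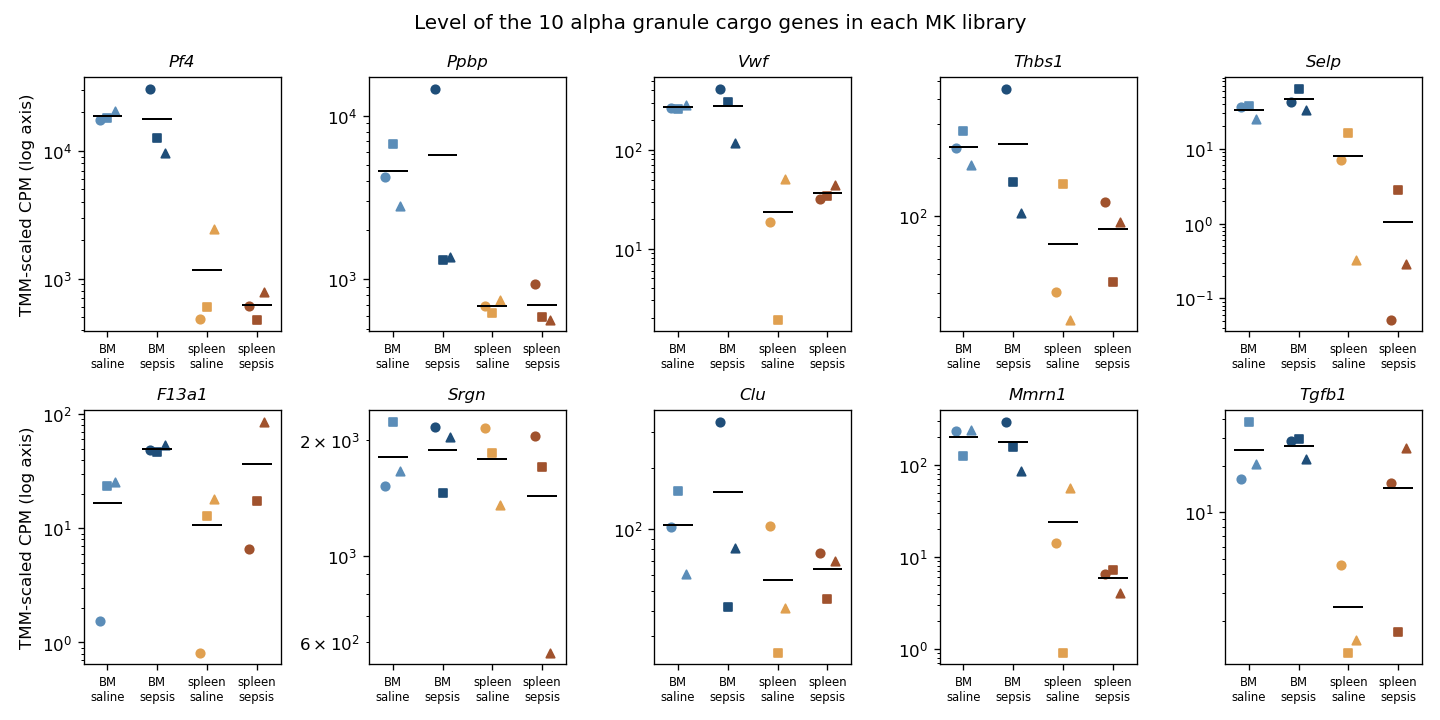
Level of each of the 10 cargo genes in the 12 MK libraries, as TMM-scaled CPM on log axes that differ between panels. Each point is a library (circle, square and triangle for replicates 1, 2 and 3) and each bar is a group mean (n = 3). The 6 BM points lie above the 6 splenic points for Pf4, Ppbp, Vwf, Selp and Mmrn1, and overlap them for the others.

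The first comparison asked how the cargo of BM MKs differed from that of splenic MKs, over both treatments. Of the 10 genes, 5 were higher in BM by edgeR's quasi-likelihood test (adjusted p under 0.05) and 0 were lower: Pf4, Ppbp, Vwf, Selp and Mmrn1. Of all genes tested, 2.07% were called higher. In the same 5 genes all 6 BM libraries lay above all 6 splenic libraries, which held for 2.56% of all genes. The log2 fold change was above 0 for 10 of 10, with a median of 2.51, against −0.13 for all genes tested. The median of all genes moved to −0.32 with RLE size factors and to 0.38 with library size alone, and the median of the 10 is to be read against it. In a bulk library, a smaller proportion of cells of a type and less RNA per cell cannot be told apart. The MK marker sum and the B cell markers above moved with tissue too, and their part in these differences was not tested.

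Among the chemokines, Pf4 measured 17478, 17926 and 20586 CPM in BM after saline and 30581, 12688 and 9606 CPM in BM after sepsis. In spleen it measured 485, 602 and 2439 CPM after saline and 615, 476 and 790 CPM after sepsis. The lowest BM library was thus above the highest splenic library, and the highest splenic value came from the third saline library. Pf4 was higher in BM by 3.99 ± 0.62 on the log2 scale in saline libraries (SE; adjusted p = 0.00197, edgeR) and by 4.81 ± 0.64 in sepsis libraries (SE; adjusted p = 0.000336). Without the third splenic saline library the difference after saline was 5.15, and without the first BM sepsis library that after sepsis was 4.18. With limma-voom the fold change was similar, 4.30 and 4.37, but the adjusted p was 0.66 and 0.63.

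Ppbp measured 4210, 6736 and 2795 CPM in BM after saline, and 14629, 1312 and 1371 CPM in BM after sepsis. In spleen its level was 689, 625 and 747 CPM after saline and 935, 584 and 565 CPM after sepsis. The groups did not overlap, but 1 BM sepsis library was more than 10 times both others. On the average of treatments Ppbp was higher in BM by 2.90 ± 0.52 (log2, SE; adjusted p = 0.00168, edgeR). Its difference in saline libraries was 2.74 ± 0.72 (adjusted p = 0.0759), and that in sepsis libraries 3.06 ± 0.73 (adjusted p = 0.0341). Without the first BM sepsis library the difference after sepsis was 0.97 and no longer passed (adjusted p = 0.542, edgeR), while the average was 1.87 and still passed. With limma-voom neither passed: the average was 2.21 (adjusted p = 0.31) and the difference after sepsis 1.79 (adjusted p = 0.64).

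The ratio of Pf4 to Ppbp, in CPM, also differed between tissues in these libraries. It was 4.15, 2.66 and 7.36 in BM after saline and 2.09, 9.67 and 7.01 in BM after sepsis. In spleen it was 0.703, 0.964 and 3.26 after saline and 0.658, 0.815 and 1.40 after sepsis. The third splenic saline library overlapped the BM range, and in 4 of the 6 splenic libraries Ppbp had the higher CPM of the pair. This ratio was looked at after the levels were known and was given no test.

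**Figure D2:**
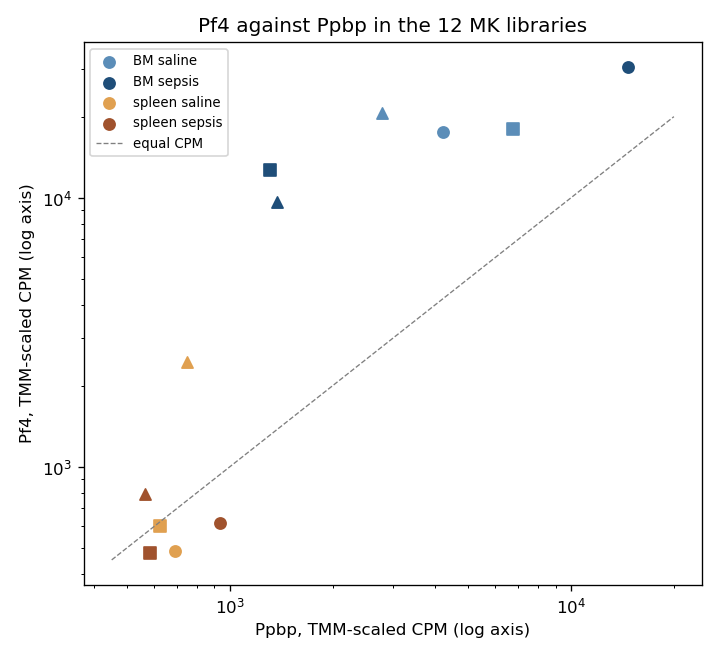
Pf4 against Ppbp in the 12 MK libraries, both as TMM-scaled CPM on log axes, with a dashed line where the 2 are equal. Each point is a library (circle, square and triangle for replicates 1, 2 and 3). All 6 BM points lie above the line, 4 splenic points lie below it, and the first BM sepsis library is the highest in both genes.

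Among the adhesive proteins, Vwf measured 265, 262 and 283 CPM in BM after saline and 416, 305 and 116 CPM in BM after sepsis. In spleen it measured 18.5, 1.90 and 50.5 CPM after saline and 32.0, 34.4 and 44.1 CPM after sepsis. Every BM library was above every splenic one. The difference was 3.51 ± 0.82 on the log2 scale after saline (SE; adjusted p = 0.0392, edgeR), 2.92 ± 0.80 after sepsis (adjusted p = 0.0790) and 3.22 ± 0.58 on average (adjusted p = 0.00174). Without the third splenic saline library, the highest of the 6, the differences were 4.75 in saline libraries and 3.85 on average. Leaving out the first splenic saline library ended the call in saline libraries (adjusted p = 0.0647, edgeR). That call was also lost with limma-voom (adjusted p = 0.1265) and with the saline groups fitted alone (adjusted p = 0.119, edgeR).

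Mmrn1 measured 231, 126 and 241 CPM in BM after saline and 293, 158 and 85.4 CPM in BM after sepsis. In spleen the values were 14.3, 0.908 and 55.8 CPM after saline and 6.58, 7.17 and 4.08 CPM after sepsis. The groups did not overlap. Mmrn1 was higher in BM by 4.91 ± 1.01 after sepsis (log2, SE; adjusted p = 0.0138, edgeR) and by 3.99 ± 0.69 on average (adjusted p = 0.00122), with 3.08 ± 0.93 after saline (adjusted p = 0.140). Without the third splenic saline library the average was 4.83. Without the 2 libraries that stood apart, the adjusted p after sepsis was 0.0562 in edgeR. With limma-voom on all libraries the adjusted p after sepsis was 0.0849.

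Thbs1 measured 224, 275 and 184 CPM in BM after saline and 454, 150 and 103 CPM in BM after sepsis, against 40.3, 146 and 29.1 CPM in spleen after saline and 119, 45.4 and 92.7 CPM after sepsis. The highest splenic library lay within the BM range. The average difference of 1.56 ± 0.49 (log2, SE) had an adjusted p of 0.0749 in edgeR. Exons of Thbs1 overlap another gene, Gm29233, over 3.43% of their length.

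Vwf, Mmrn1 and Selp are also genes of endothelial cells. The sum of 10 endothelial markers (highest Esam, Tie1 and Kdr) was 47.9 to 89.2 CPM in BM and 6.84 to 104 CPM in spleen, with overlap. Gene by gene, 7 of the 9 tested had an average fold change above 0. The list median was 2.11 (log2), against −0.13 for all genes tested. It was 0.65 after saline and 2.36 after sepsis, and 0 of the 9 were called. Without overlap, 1 of the 9 was higher in BM after saline and 5 after sepsis, against 11.3% and 11.0% of all genes. Cldn5 was at 0 in both splenic groups, and Emcn and Plvap were at 0 in spleen after sepsis. The sort required CD45, Tom, CD41 and CD42b. The part of endothelial cells in the levels of the 3 genes was not tested.

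Selp, the membrane receptor, was a low gene. It measured 36.9, 37.8 and 25.3 CPM in BM after saline and 42.4, 63.9 and 32.8 CPM in BM after sepsis. In spleen it had 53, 198 and 3 counts after saline and 1, 25 and 3 counts after sepsis, which is 7.16, 16.3 and 0.322 CPM and then 0.0514, 2.80 and 0.291 CPM. All BM libraries were above all splenic ones, and 2 of the 3 splenic sepsis libraries were at or under 3 counts, the limit that a count of 0 allows. The average difference was 3.78 ± 0.94 (log2, SE; adjusted p = 0.0216, edgeR), with 2.07 ± 1.23 in saline libraries (adjusted p = 0.475) and 5.49 ± 1.44 in sepsis libraries (adjusted p = 0.0595). The average was 5.21 without the second splenic sepsis library. The difference in sepsis libraries passed in 13 of the 22 alternative settings. Selp shares 14.1% of its exon length with Gm16548 and Gm16587, so that reads there cannot be assigned without knowing the strand setting.

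The soluble proteins with other functions did not pass the test between tissues. Srgn measured 1455 to 2227 CPM in BM (median 1847) and 563 to 2150 CPM in spleen (median 1779), with a difference of 0.20 on the log2 scale (95% confidence interval −0.49 to 0.90; adjusted p = 0.779, edgeR). The lowest value came from the third splenic sepsis library. Srgn is a gene of many blood cells, and the part of the B cell, basophil and neutrophil markers above in its level was not tested. The sign of this small difference changed when the 2 libraries that stood apart were left out (−0.02). Clu measured 41.4 to 335 CPM in BM (median 91.4) and 24.8 to 104 CPM in spleen (median 57.7), with a difference of 1.07 (95% confidence interval −0.02 to 2.17; adjusted p = 0.268, edgeR). F13a1 measured 1.55 to 53.9 CPM in BM and 0.811 to 85.8 CPM in spleen, with a difference of 0.55 (95% confidence interval −1.09 to 2.19; adjusted p = 0.736, edgeR).

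Tgfb1 measured 16.4, 38.5 and 20.6 CPM in BM after saline and 29.0, 29.7 and 22.2 CPM in BM after sepsis. In spleen it measured 4.60, 1.24 and 1.502 CPM after saline and 15.4, 1.68 and 26.2 CPM after sepsis. The tissues were apart after saline and overlapped after sepsis, where the third splenic library lay within the BM range. The average difference of 2.13 ± 0.76 (log2, SE) had an adjusted p of 0.122 in edgeR.

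**Figure D3:**
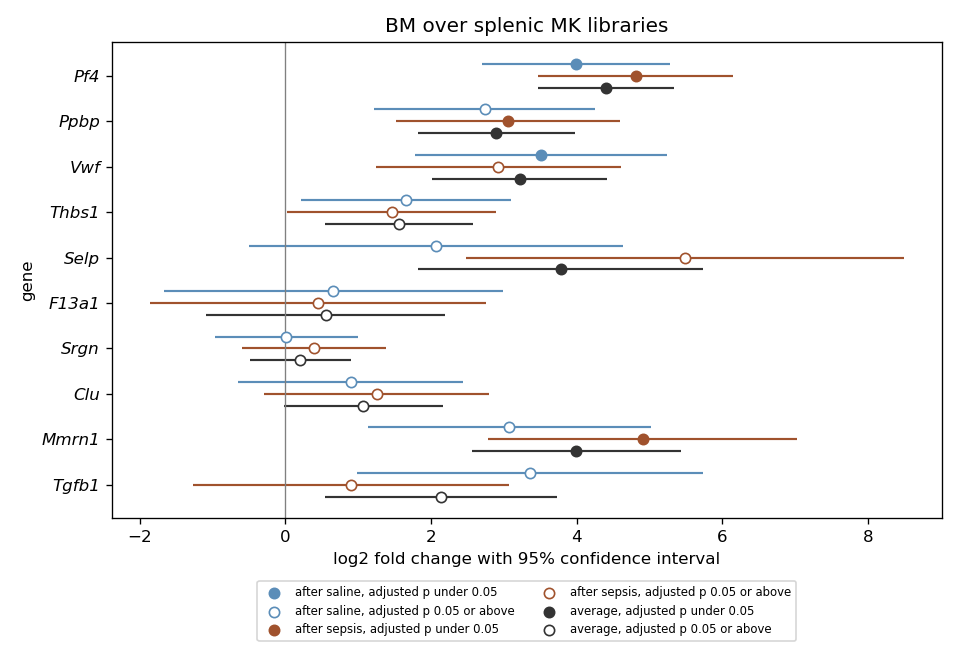
Log2 fold change of BM over splenic MK libraries for each of the 10 genes, after saline, after sepsis and on the average of both, with 95% confidence intervals (edgeR, 3 libraries per group). Filled points have an adjusted p under 0.05. All 30 points lie above 0, and the averages run from 0.20 (Srgn) to 4.40 (Pf4).

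Within each treatment fewer genes passed. After saline, 2 of 10 were called higher in BM (Pf4 and Vwf), against 0.523% of all genes, and 7 of 10 did not overlap between the tissues, against 11.3%. After sepsis, 3 of 10 were called higher (Pf4, Ppbp and Mmrn1), against 0.597% of all genes, and 5 of 10 did not overlap, against 11.0%. Without both libraries that stood apart, 3 were called after saline, 1 (Pf4) after sepsis and 5 on average. A gene called after 1 treatment and not after the other was not thereby shown to differ between them: in the test of that difference, the tissue by sepsis interaction, 0 of 10 genes passed in edgeR, 0 had an unadjusted p under 0.05, and 0% of all genes were called. In that test limma-voom called 0 and DESeq2 called 0 of the 10 as well, the latter with 495 genes called in all and 1 of the 10 at an unadjusted p under 0.05.

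Scaled to the MK marker sum of the same library, fewer of the 5 genes stood apart between tissues. Pf4 was 8.45 to 15.9 times the MK marker sum in BM libraries and 0.827 to 6.97 times in splenic libraries, without overlap. It was the only 1 of the 10 genes whose ratio did not overlap between tissues. Ppbp was 0.874 to 6.36 times the sum in BM and 0.592 to 5.19 times in spleen. The ratio of Vwf was 0.134 to 0.218 in BM and 0.0103 to 0.248 in spleen, and that of Mmrn1 0.0842 to 0.186 and 0.00427 to 0.159. Srgn went the other way in its medians, with 1.12 times the sum in BM and 9.29 times in spleen. The ranges overlapped through the third splenic sepsis library, at 0.590 times the sum. The next lowest splenic ratio of Srgn was 3.87, against a highest BM ratio of 2.34. That splenic sepsis library, with the highest splenic MK marker sum, also gave the lowest splenic ratio of Pf4, Ppbp and Mmrn1. These ratios were given no test.

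The second comparison asked what sepsis changed within each tissue. In BM, 0 of 10 genes passed in edgeR and 0 had an unadjusted p under 0.05, against 3.54% of all genes, while 0% of all genes were called. DESeq2 called 0 of the 10, with 206 genes called in all, and limma-voom called 0, with 1 of the 10 at an unadjusted p under 0.05. The fold changes lay between −0.16 (Mmrn1) and 1.57 (F13a1) on the log2 scale. F13a1 was the only 1 whose groups did not overlap, which was so in the higher direction for 4.79% of all genes. It measured 1.55, 23.3 and 25.5 CPM after saline and 49.0, 46.7 and 53.9 CPM after sepsis, which fitted as 1.57 ± 1.13 on the log2 scale (SE; adjusted p = 1, edgeR). The sum of 12 monocyte and macrophage markers, a cell type that also expresses F13a1, was 365 to 974.7 CPM in BM after saline and 550 to 1145 CPM after sepsis, with overlap. Of these markers 11 were tested, 9 had a fold change above 0 and 0 were called. The list median was 1.11 (log2), against −0.08 for all genes, and the part of this cell type was not tested. For Pf4 the fold change in BM was −0.08 (95% confidence interval −1.22 to 1.06) and for Ppbp 0.33 (95% confidence interval −1.09 to 1.75).

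BM libraries after sepsis varied more than after saline for several of the genes. The coefficient of variation was 9.0% after saline and 64.3% after sepsis for Pf4, 43.6% and 133% for Ppbp, 4.24% and 54.3% for Vwf, and 20.2% and 80.7% for Thbs1. These spreads, each over 3 libraries, were given no test. In these 4 genes, and in Clu and Mmrn1, the first BM sepsis library was the highest of the 12. Without it, the log2 fold change of sepsis over saline in BM was −1.76 for Ppbp, −0.83 for Thbs1, −0.35 for Vwf and −0.77 for Clu, each of which had been above 0 with it, and none of the 10 genes was called. For F13a1 the coefficient of variation was 78.9% after saline and 7.36% after sepsis.

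In spleen, 0 of 10 genes passed in edgeR after sepsis, against 0.158% of all genes, and 3 had an unadjusted p under 0.05, against 13.1% of all genes. DESeq2 called 0 of the 10, with 986 genes called in all, and limma-voom called 0. The 3 genes were Selp at −2.95 ± 1.29, Mmrn1 at −1.99 ± 0.90 and Tgfb1 at 2.56 ± 1.10 (log2, SE; adjusted p = 0.382 for each, edgeR), from the values given above, and their groups overlapped. In Tgfb1 the second sepsis library stayed within the saline range. In Mmrn1 the second saline library was below all 3 sepsis libraries. With 1 library left out at a time, the fold change ran from −2.56 to −0.34 for Mmrn1. It ran from −5.51 to −1.86 for Selp and from 1.85 to 3.44 for Tgfb1. Pf4 had a fold change of −0.91 (95% confidence interval −2.06 to 0.24), which rested on the third saline library: without it the value was 0.24. Ppbp differed by 0.02 (95% confidence interval −1.40 to 1.43). Over the same comparison the basophil and mast cell markers were lower after sepsis in 8 of 10 genes without overlap, against 4.51% of all genes, and their part was not tested.

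**Figure D4:**
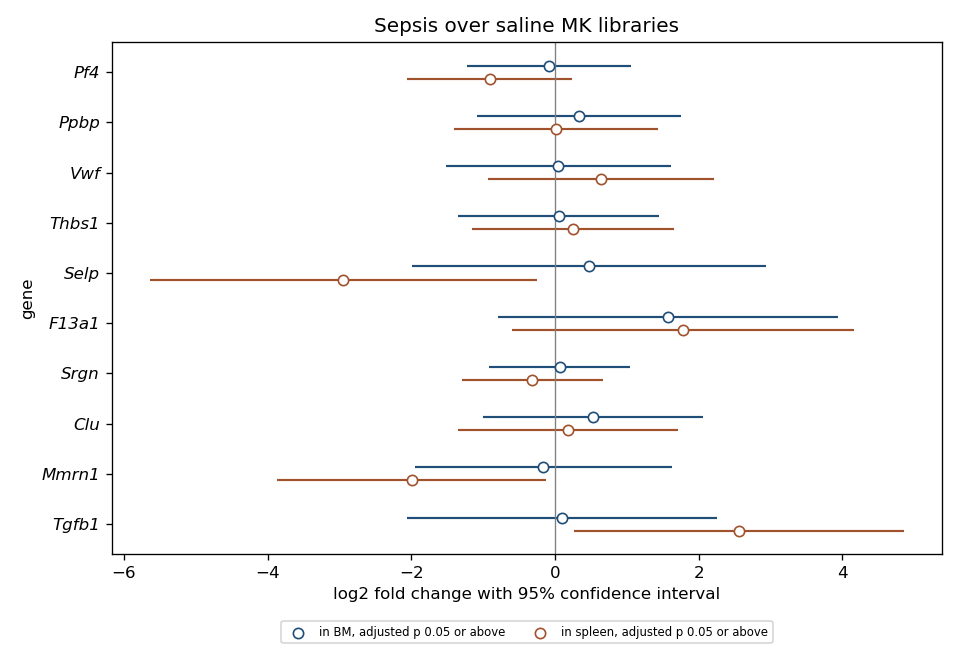
Log2 fold change of sepsis over saline for each of the 10 genes in BM and in spleen, with 95% confidence intervals (edgeR, 3 libraries per group). All points are open, since no adjusted p was under 0.05. The intervals of Selp, Mmrn1 and Tgfb1 in spleen lie to one side of 0.

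Other genes of the granule system, taken from hand-written lists, were set beside the 10. Of all genes tested, 2.07% were called higher and 2.68% lower in BM on average. Of 28 further genes for soluble alpha granule contents, 21 were tested, and 4 were higher: Angpt1 (angiopoietin 1, a ligand that stabilizes vessels; 4.94 ± 0.79), Serpine2 (protease nexin 1; 3.01 ± 0.57), Cxcl5 (a neutrophil chemokine; 5.27 ± 1.03) and Pdgfb (platelet-derived growth factor B; 5.31 ± 1.31), all log2 with SE. None was called lower. In spleen Pdgfb had 1, 2 and 6 counts after saline and 2, 0 and 8 after sepsis, near the limit of 3 counts. Cxcl5 had 2, 2 and 2 splenic counts after saline and 11, 5 and 177 after sepsis. Its tissues overlapped, with a lowest BM level of 2.81 CPM and a highest splenic level of 17.2 CPM. Egf, with among the largest p of the list, was at −0.11 ± 1.76 (adjusted p = 1, edgeR). Vegfc had counts in 4 of the 12 libraries and is given no fold. Angpt1 measured 177 to 367 CPM in BM and 0.743 to 27.9 CPM in spleen. The list median was 1.04, and it was the same over the 17 genes that had counts in every group. Of the 3 genes for fibrinogen, which platelets take up from plasma, Fga and Fgg did not pass the filter on low counts. Fgb had between 0 and 72 counts per library, was at 0 in all 3 splenic sepsis libraries and is given no fold.

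Of 17 genes for forming and releasing alpha granules, all tested, 1 was higher in BM and 0 lower, with a list median of 0.21. Rab27b, a small GTPase of granule secretion, was higher by 4.10 ± 0.68 (log2, SE; adjusted p = 0.000892, edgeR), at 128 to 505 CPM in BM and 3.54 to 70.6 CPM in spleen. Vamp8, the main vesicle SNARE of platelet release, differed by 1.16 ± 0.35 without overlap (adjusted p = 0.0646). The sorting adaptor Vipas39 was at −0.02 ± 0.82 and Stxbp2, a syntaxin partner, at 0.05 ± 0.45. Nbeal2, whose loss empties alpha granules in gray platelet syndrome, was at −0.74 ± 0.72 (adjusted p = 0.594).

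Of 15 dense granule genes, 2 were higher in BM and 1 lower, with a list median of 0.22. Slc35d3, a protein of dense granule biogenesis, was higher by 5.40 ± 0.61 (log2, SE; adjusted p = 1.46e-05, edgeR) and Dtnbp1, the dysbindin subunit of BLOC-1, by 2.38 ± 0.44 (adjusted p = 0.00252). Slc17a9, the nucleotide transporter, was lower by 3.09 ± 0.84, at 1.12 to 3.54 CPM in BM and 6.84 to 56.6 CPM in spleen (adjusted p = 0.0383). Hps4 (0.04 ± 0.81) and Lamp2 (0.07 ± 0.46) did not pass. Among the 12 MK markers 5 were higher in BM, among them Nfe2, Treml1, Gata1 and Itgb3, with a list median of 2.61 beside the 2.51 of the 10 cargo genes. In no list of granule genes was a gene called for sepsis in either tissue or for the interaction.

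**Figure D5:**
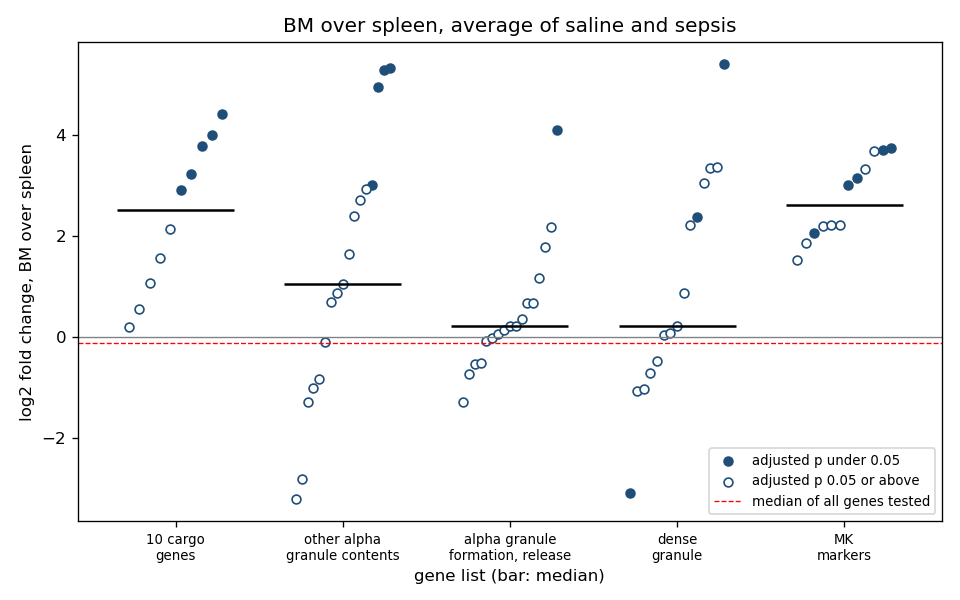
Log2 fold change of BM over spleen, averaged over treatments, for the 10 cargo genes, 3 other lists of granule genes and 12 MK markers. Each point is a tested gene with counts in every group (4 of the 21 further cargo genes had a group at 0 and are left out), filled where the adjusted p was under 0.05 (edgeR), black bars are list medians, and the dashed line is the median of all genes tested (−0.13). The medians are 2.51, 1.04, 0.21, 0.22 and 2.61 from left to right.

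Over the 12 libraries, which share tissue, depth and cell makeup as sources of variation, Pearson's r of log2 CPM was 0.93 for Vwf and Mmrn1, 0.92 for Pf4 and Mmrn1, 0.87 for Pf4 and Vwf, 0.86 for Pf4 and Ppbp and 0.83 for Ppbp and Thbs1, the 5 highest of the 45 pairs. The lowest were −0.36 for F13a1 and Srgn, −0.07 for Srgn and Tgfb1 and −0.03 for F13a1 and Clu, and Pf4 had 0.21 with Srgn. Among genes outside the 10, those most like the mean log2 level of the 10 were Gm16225, Epor (the erythropoietin receptor), Cxcl3, Etfb, F2rl3 (the thrombin receptor PAR4), Tceal8, Dnph1 and Gm15657, with r from 0.960 to 0.987 over 12 libraries. Those most like Pf4 included F2rl3 (0.983) and Cavin2 (0.980), and those most like Thbs1 were Ltbp1 (0.945), 2610528J11Rik (0.913) and Optn (0.897). F2rl3 averaged 20.2 CPM in BM and 0.257 CPM in spleen, and Cavin2 465 and 11.6 CPM. Ltbp1, which binds latent TGF-β, is also among the 28 further cargo genes and averaged 52.3 CPM in BM and 10.5 CPM in spleen.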

How the data were processed

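RNA was measured in 12 MK libraries, in 4 groups of 3 independent replicates taken from the sample labels. Per the methods, cDNA came from the SMART-Seq HT kit and libraries from Nextera XT, and the authors deposited raw read counts per Ensembl gene, not normalized. The submitters' processing notes name GRCm38, STAR 2.7.2b, R 3.6.1 and DESeq2 1.26. The annotation, strand setting and read filters are not given in sources used here. Positions, names and exon lengths came from GENCODE M21 on GRCm38, in which all 55536 identifiers were found.

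Tests used edgeR 4.0.16 in R 4.3.3 (filterByExpr, minimum count 10, TMM scaling, 1 mean per group, 8 residual degrees of freedom, quasi-likelihood F test, Benjamini-Hochberg adjustment over 20263 genes, calls at 0.05). The SE is the log2 fold change divided by the square root of F. The common dispersion of 2.05 is a coefficient of variation of 143%. limma-voom (limma 3.58.1), DESeq2 1.42.0, other scalings and filters, a replicate block and leaving out libraries were alternatives. Figures were drawn with matplotlib 3.10.9. The scripts were tested on simulated data. Where a gene had no count, up to 3 counts were allowed for, which covers counting error only.

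The members and lists were chosen with earlier results of these data known. Named genes were the 10 members, and of each other granule list the 2 genes with the smallest and the 2 with the largest p between tissues, and any called for sepsis. Cxcl5, Pdgfb, Slc17a9, Nbeal2, the fibrinogen genes, Tubb1 and the called MK markers were named after their values were seen. A few items that these rules name are not reported here. Replicate numbers were not used to pair the samples, since the labels state no pairing. Correlations of same-numbered deviations ran from −0.06 to 0.04, which cannot show whether libraries of the same number shared a mouse.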

Additional observations from a re-analysis of the deposited data

How the results depend on the processing

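Between BM and spleen after saline, 2 of the 10 genes were called, with 4 under library size alone, 4 with no expression filter, 5 with DESeq2, 0 with limma-voom and 1 (without the first splenic saline library) to 3 when 1 library was left out. After sepsis 3 were called, with 5 under library size alone, 5 with no expression filter, 5 with DESeq2, 1 with limma-voom, 5 with the replicate block, 1 without both libraries that stood apart (chosen after seeing the data), and 2 to 5 when 1 library was left out (5 without BM saline 2 or 3, BM sepsis 3 or any splenic saline library). On the average of treatments 5 were called, with 3 under limma-voom, where Pf4 and Ppbp lost their calls. For sepsis in either tissue and for the interaction 0 were called in every setting. The causes were not tested.

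The replicate block changed no call on the average of treatments. It took the count after saline from 2 to 3, and whether the numbers pair the samples is not known.

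Fold changes whose sign changed were all uncalled. With RLE size factors and with DESeq2 (−0.27 each), 10 counts in at least 6 libraries (−0.12), without immunoglobulin genes (−0.033) and groups compared alone (−0.0042), Srgn after saline (0.01) was below 0. Sepsis over saline in spleen for Ppbp (0.02) was −0.18 with RLE and with DESeq2, −0.012 with library size alone, −0.068 with the stricter filter, −0.11 with the replicate block, −0.015 without immunoglobulin genes and −0.062 with groups alone; for Thbs1 (0.25) it was −0.031 with RLE and with DESeq2. In BM, Ppbp was −0.74 with limma-voom and −0.25 with the replicate block, Vwf −0.31 with limma-voom, and Thbs1 −0.30 with limma-voom, −0.093 with the replicate block and −0.0028 with RLE and with DESeq2. Without both libraries that stood apart, sepsis in BM was −0.77 for Clu, −1.76 for Ppbp, −0.032 for Srgn, −0.83 for Thbs1 and −0.35 for Vwf, Srgn in spleen was 0.11, and Srgn between tissues was −0.084 after sepsis and −0.015 on average.

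Leaving out 1 library at a time gave these ranges of log2 fold change: between tissues, Srgn −0.11 to 0.31 after saline and Clu −0.037 to 1.73 after sepsis; for sepsis in BM, Clu −0.77 to 1.001, Mmrn1 −0.70 to 0.19, Pf4 −0.73 to 0.23, Ppbp −1.76 to 0.82, Srgn −0.032 to 0.28, Tgfb1 −0.12 to 0.57, Thbs1 −0.83 to 0.42 and Vwf −0.35 to 0.43; for sepsis in spleen, Clu −0.18 to 1.01, Pf4 −1.25 to 0.24, Ppbp −0.23 to 0.18, Srgn −0.60 to 0.11 and Thbs1 −0.076 to 1.31. Of the 1153 values for single genes under alternatives, 1035 kept their direction and side of the threshold, 53 changed sign, 14 lost a call and 51 gained one. Depth limits the lowest values, such as Selp with 1, 25 and 3 counts in the splenic sepsis libraries.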
